A study of Mus musculus with 16 samples.

Results

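The genes described here are 7 markers of the mesothelium, the single layer of flat cells that covers the lung and lines the chest cavity: Gpm6a, Lrrn4, Msln, Upk3b, Upk1b, Wt1 and Bnc1. They were taken as a named list, with symbols mapped from the Ensembl identifiers of the expression table. They are 7 of 53647 genes in the table and 7 of the 17003 genes abundant enough to be tested. RNA was sequenced from mouse lung in 4 groups of 4 libraries, and the labels do not say whether whole lungs were used. The first 2 groups were control and bleomycin. The others were bleomycin plus an adenovirus for green fluorescent protein (labelled Ad-GFP) and bleomycin plus an adenovirus labelled Ad-ATP12A, after a proton pump subunit. Bleomycin is a DNA-damaging drug used to model pulmonary fibrosis in mice. All 12 libraries outside the control group therefore came from bleomycin-treated lungs, and both vector groups differ from the bleomycin group by an adenovirus as well as by its cargo. Each group had 2 libraries in each of 2 batches, and a library is written by its batch and replicate, so b2r1 is batch 2, replicate 1. The labels give no strain, sex, age, dose, route, vehicle, promoter of the vectors or day of collection. Whether replicates were separate animals is not given either, so p-values measure the spread between these libraries, which may be technical.

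Mesothelial cells secrete a lubricating, hyaluronan-rich film, carry microvilli on their free surface and hold a mixed epithelial and mesenchymal character, with keratins beside vimentin. They descend from the lining of the embryonic body cavity, where the transcription factor Wt1 is a defining gene. After injury of the lung surface they can lose their epithelial form and take on features of myofibroblasts. In bulk tissue such as this, fewer mesothelial cells and less RNA per cell cannot be told apart, and the amount of pleura in a piece of lung is not recorded.

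Values are TPM, a unit of transcript abundance that corrects for transcript length and for library size, so levels of different genes can be set side by side and every value is a share. TPM keeps no read counts, and the sequencing depth is unknown. The libraries held 15537 to 16336 genes at 1 TPM or more, and the lowest correlation between 2 libraries of a group was 0.975. Atp12a lay at 2.96 to 29.02 TPM in the Ad-ATP12A libraries and at 0.2 TPM or less in the other 12. Scgb1a1, the club cell secretoglobin, was under 1000 TPM in 3 libraries, control b2r1, bleomycin b2r2 and Ad-GFP b1r1, and Xist passed 10 TPM in 6 libraries, of which 3 were Ad-ATP12A and 1 was in each other group. Fits without those 3 libraries or with a term for Xist are named beside the results they bear on.

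Promoter sequences are shown for the 4 members with an entry in the RefSeq table. These 4, on 4 different chromosomes, were among the 5 members that fell after bleomycin alone. Whether their promoters had a part in that was not tested. Gpm6a (ENSMUSG00000031517) is on chromosome 8, Lrrn4 (ENSMUSG00000043110) on chromosome 2, Upk3b (ENSMUSG00000042985) on chromosome 5 and Bnc1 (ENSMUSG00000025105) on chromosome 7. Msln (ENSMUSG00000063011, chromosome 17), Upk1b (ENSMUSG00000049436, chromosome 16) and Wt1 (ENSMUSG00000016458, chromosome 2) had no entry. All 7 are protein coding. Each run is the 250 bases before an annotated start in GRCm38.p6, an earlier build than the GRCm39 of the expression values, written 5′ to 3′ on the gene's strand. Capitals mark letters found by a search of both strands for GGAATG, the core bound by TEAD factors, in the first 3 sequences, and for GGGCGG, the GC box, in the last.
Gpm6a, first of 2 starts, chr8:54779184-54779433, plus strand: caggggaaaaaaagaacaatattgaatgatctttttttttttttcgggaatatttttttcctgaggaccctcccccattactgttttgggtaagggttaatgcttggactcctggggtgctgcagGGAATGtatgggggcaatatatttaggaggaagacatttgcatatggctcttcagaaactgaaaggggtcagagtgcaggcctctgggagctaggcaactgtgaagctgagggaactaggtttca
Lrrn4, chr2:132880863-132881112, minus strand: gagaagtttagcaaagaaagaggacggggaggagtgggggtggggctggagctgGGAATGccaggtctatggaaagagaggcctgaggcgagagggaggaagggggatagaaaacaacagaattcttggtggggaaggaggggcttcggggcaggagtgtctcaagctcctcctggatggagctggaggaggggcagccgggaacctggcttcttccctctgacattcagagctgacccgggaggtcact
Upk3b, chr5:136038246-136038495, plus strand: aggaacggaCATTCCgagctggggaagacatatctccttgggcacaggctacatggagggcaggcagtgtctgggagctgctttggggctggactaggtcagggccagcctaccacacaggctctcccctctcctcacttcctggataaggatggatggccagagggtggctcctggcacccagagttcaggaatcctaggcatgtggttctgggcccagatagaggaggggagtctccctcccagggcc
Bnc1, chr7:81992300-81992549, minus strand: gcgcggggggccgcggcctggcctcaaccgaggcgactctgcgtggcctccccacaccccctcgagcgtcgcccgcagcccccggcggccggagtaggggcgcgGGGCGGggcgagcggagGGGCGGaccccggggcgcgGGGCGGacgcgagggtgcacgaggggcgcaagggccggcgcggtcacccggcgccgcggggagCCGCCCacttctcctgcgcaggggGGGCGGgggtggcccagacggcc

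The TEAD letters began 125 bases before the start of Gpm6a, 196 before that of Lrrn4 and, on the reverse strand, 241 before that of Upk3b. The second start of Gpm6a, chr8:54954478-54954727, held none of the motifs searched. Bnc1 held 5 GC boxes, at 146, 129, 110, 47 (reverse strand) and 23 bases before its start, in a promoter of 83.6% G and C against a median of 52.4%. GTGGGAG, a core bound by WT1, was in none of these windows. Among 32851 promoter windows of the same length, 12.6% held GGAATG, 32.7% held GGGCGG and 8.25% held GTGGGAG on either strand, each motif counted without regard to overlap with the other 2. These matches describe letters in a window and say nothing of binding.

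In control lung the members spanned a wide range of abundance. Gpm6a was the most abundant at 66.9 ± 9.15 TPM (SD, n = 4), followed by Msln at 49.1 ± 9.79, Upk1b at 34.5 ± 1.51, Upk3b at 30.5 ± 6.12, Lrrn4 at 14.4 ± 1.67, Wt1 at 2.84 ± 0.746 and Bnc1 at 2.41 ± 0.410 TPM. The neighbours Gpm6a and Msln, Upk1b and Upk3b, and Wt1 and Bnc1 overlapped between libraries, and the other neighbours in this order did not. The surface proteins thus stood well above the transcription factors. In each of the 3 bleomycin-treated groups Msln was the most abundant member, with no library of a group as low in Msln as its highest in Gpm6a, and by group means the other 6 kept their order. Gpm6a and Upk1b overlapped in each of these groups, Upk1b and Upk3b in both vector groups, and Wt1 and Bnc1 with Ad-ATP12A.

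After bleomycin alone, 5 of the 7 genes fell: Gpm6a, Lrrn4, Upk3b, Upk1b and Bnc1. Their mean TPM was between 41.5% (Gpm6a) and 64.8% (Upk1b) of control. Wt1 did not pass the test, and Msln, at 190% of control, did not pass either and pointed the other way. Of all genes tested, 5.61% were called lower and 13.2% higher in the same comparison, which gives the background for 5 lower and 0 higher members. The median difference of the members was −0.61 on the log2(TPM + 1) scale, against 0.05 over all genes tested. Scaling moved the split of all genes: 954 were lower and 2247 higher as reported, 1709 and 1747 after quantile normalization, and 1512 and 1698 after median-ratio scaling, while 5 members were called lower under each. The test throughout was limma on log2(TPM + 1) with batch as a term, two-sided, Benjamini-Hochberg adjusted over 17003 genes, with a threshold of 0.05. Adding 1 to each TPM shrinks the differences of genes at low TPM, which among the members are Wt1 and Bnc1. With 0.1 in its place the difference of Bnc1 was −0.82 after bleomycin and −0.91 with Ad-ATP12A, and both calls held.

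**Figure D1:**
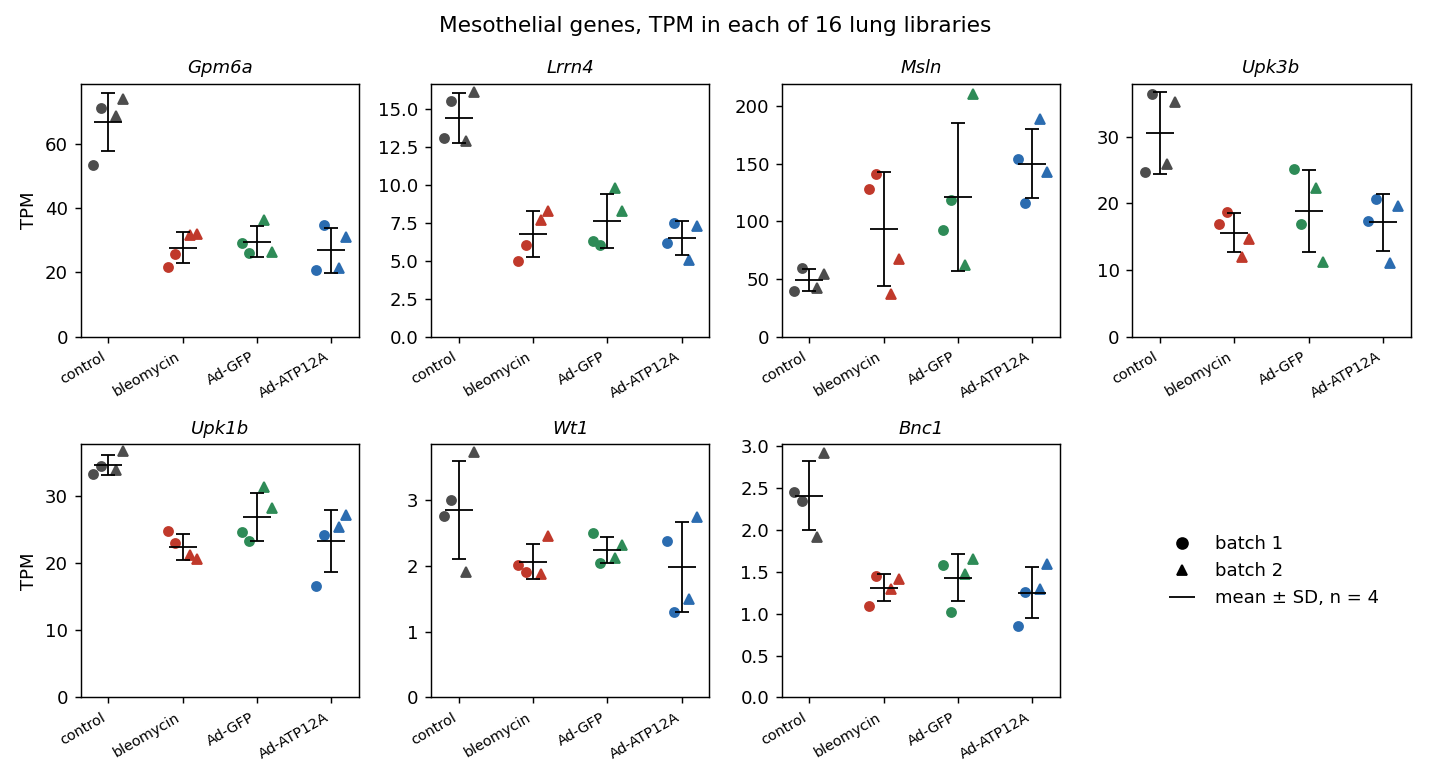
TPM of the 7 mesothelial genes in each library (points, circles for batch 1 and triangles for batch 2), with the mean and SD of the 4 libraries of each group (bars); each vertical axis starts at 0. Gpm6a, Lrrn4, Upk1b and Bnc1 were lower in all 12 bleomycin-treated libraries than in any control, while Msln lay above every control in 11 of the 12.

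Gpm6a, a 4-pass membrane glycoprotein first studied in neurons and a marker of the lung mesothelium, was measured at 53.5, 71.2, 68.7 and 74.0 TPM in the control libraries and at 21.8, 25.8, 31.5 and 31.9 TPM in the bleomycin libraries, in the order b1r1, b1r2, b2r1, b2r2. No bleomycin library reached the lowest control. The fitted difference was −1.25 (SE 0.172, 95% interval −1.61 to −0.88, limma adjusted p = 0.000531), with −1.35 within batch 1 and −1.14 within batch 2.

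Lrrn4, a leucine-rich repeat membrane protein of the neuronal family whose lung expression marks mesothelium, stood at 13.1, 15.6, 12.9 and 16.1 TPM in control. The bleomycin libraries gave 4.96, 6.03, 7.71 and 8.29 TPM, all below the controls, and within that group the batch 1 libraries were the lower pair. The difference was −1.01 (SE 0.161, limma adjusted p = 0.00143), with −1.24 and −0.78 in batches 1 and 2.

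The uroplakins are best known as plaque proteins of the bladder surface, and Upk3b and Upk1b are also made by mesothelium. Upk3b was at 24.7, 36.4, 25.8 and 35.2 TPM in control and at 16.9, 18.8, 12.0 and 14.7 TPM after bleomycin. The groups did not overlap. The difference of Upk3b was −0.92 (SE 0.225, limma adjusted p = 0.0135), with −0.72 in batch 1 and −1.13 in batch 2. Without the 3 libraries low in Scgb1a1 it was −0.97 with an adjusted p of 0.0535, past the threshold no longer.

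Upk1b, the tetraspanin of the pair, was the steadiest member in control, at 33.2, 34.5, 33.8 and 36.7 TPM. It lay at 24.8, 23.0, 21.2 and 20.6 TPM in the bleomycin libraries, again with no overlap. Its difference was −0.61 (SE 0.128, limma adjusted p = 0.00641), with −0.49 and −0.73 in the batches.

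The transcription factors were the least abundant members. Bnc1, basonuclin 1, a zinc finger protein of keratinocytes, germ cells and mesothelium, stood at 2.45, 2.35, 1.92 and 2.92 TPM in control and at 1.09, 1.45, 1.30 and 1.41 TPM after bleomycin, without overlap. The difference was −0.56 (SE 0.141, limma adjusted p = 0.0159), with −0.59 and −0.52 in the batches, and −0.52 with an adjusted p of 0.0572 when bleomycin b1r1 was left out. Wt1, the zinc finger factor of the embryonic body-cavity lining, stood at 2.75, 2.99, 1.91 and 3.72 TPM in control and at 2.01, 1.90, 1.88 and 2.45 TPM after bleomycin. These Wt1 groups overlapped, and the difference of −0.31 (95% interval −0.70 to 0.07, limma adjusted p = 0.239) leaves room for a fall like that of Upk1b.

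Msln encodes mesothelin, an adhesion protein anchored in the outer membrane by a lipid and also abundant in several carcinomas. It was at 39.7, 59.9, 41.9 and 54.7 TPM in control and at 127.7, 141.4, 36.8 and 67.7 TPM after bleomycin. The batch 1 bleomycin libraries were above every control, b2r2 also lay above them, and b2r1 was the lowest library of both groups. The difference was 0.75 (SE 0.392, 95% interval −0.09 to 1.59, limma adjusted p = 0.194), with 1.44 within batch 1 and 0.06 within batch 2. The difference between those batch effects was −1.38 (adjusted p = 0.291 in the limma interaction fit), and 0.0647% of genes tested differed between batches in that fit, none of them a member. Without bleomycin b2r1 the Msln difference was 1.12 with an adjusted p of 0.04, so 1 library decides that call. That library was also the only one of its group with Xist above 10 TPM, a property it shares with 5 libraries in the other groups. With a term for Xist in the fit Msln did not pass after bleomycin either.

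Counted by non-overlap, 5 members had every bleomycin library below every control, where 6.92% of all genes tested were so placed, and 0 members had every one above, where 16.5% were.

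**Figure D2:**
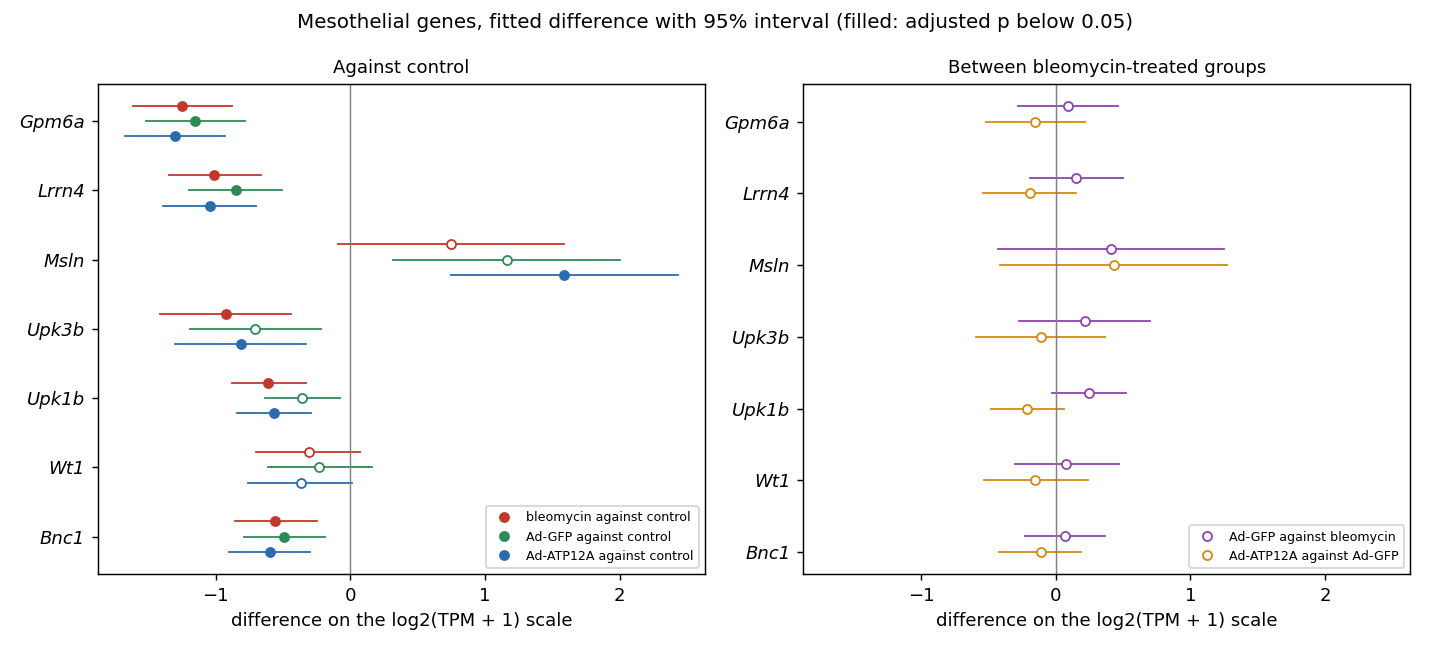
Fitted differences of the 7 genes on the log2(TPM + 1) scale (points) with 95% intervals (lines), against control on the left and between bleomycin-treated groups on the right; filled points passed an adjusted p of 0.05. Against control, 6 genes point down in all 3 comparisons and Msln points up, and on the right every interval spans 0.

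The Ad-GFP and Ad-ATP12A groups were each set against the same 4 control libraries, so the 3 comparisons with control share those libraries and their likeness is not separate support. In Ad-GFP lungs 3 members fell, Gpm6a, Lrrn4 and Bnc1, and 0 rose, against 4.52% of all genes called lower and 9.16% higher. The median of the members was −0.49, against 0.03 over all genes. In Ad-ATP12A lungs 5 members fell, Gpm6a, Lrrn4, Upk3b, Upk1b and Bnc1, and 1 rose, Msln, against 9.49% called lower and 13.3% higher. The median there was −0.60, against 0 over all genes. As for bleomycin alone, scaling moved the split of all genes, from 768 lower and 1558 higher to 1360 and 1296 after quantile normalization and 1161 and 1294 after median-ratio scaling for Ad-GFP. For Ad-ATP12A the split went from 1613 and 2261 to 2345 and 1992, and to 1996 and 2150.

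Gpm6a was at 29.2, 26.2, 36.5 and 26.3 TPM in the Ad-GFP libraries and at 20.7, 34.7, 21.3 and 31.0 TPM in the Ad-ATP12A libraries. All 8 lay below the lowest control of 53.5 TPM. The differences from control were −1.15 (95% interval −1.52 to −0.78, limma adjusted p = 0.00135) and −1.30 (−1.67 to −0.93, adjusted p = 0.000331). Lrrn4 was at 6.31, 6.06, 9.80 and 8.30 TPM with Ad-GFP and at 6.20, 7.46, 5.02 and 7.32 TPM with Ad-ATP12A. These were likewise all below control, and the differences were −0.85 (limma adjusted p = 0.00532) and −1.04 (adjusted p = 0.00101).

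Upk3b was at 25.1, 16.9, 22.3 and 11.2 TPM with Ad-GFP. The first of these reached into the control range, and the difference of −0.71 had a limma adjusted p of 0.0525. It passed without control b1r1 (adjusted p = 0.0413), Ad-GFP b1r1 (0.0410), Ad-GFP b2r1 (0.0225) or Ad-ATP12A b2r1 (0.0455). With Ad-ATP12A, Upk3b was at 17.3, 20.6, 11.1 and 19.5 TPM, all below control, with a difference of −0.81 (limma adjusted p = 0.0208) that no longer passed without control b1r2 (adjusted p = 0.0575), control b2r2 (0.0538) or Ad-ATP12A b2r1 (0.0732). Upk1b was at 24.7, 23.3, 31.3 and 28.2 TPM with Ad-GFP and at 16.7, 24.2, 25.3 and 27.1 TPM with Ad-ATP12A. Both sets lay below every control. The Upk1b differences were −0.36 (limma adjusted p = 0.0769, and 0.0331 without Ad-ATP12A b1r1) and −0.57 (adjusted p = 0.00773).

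Bnc1 was at 1.58, 1.02, 1.47 and 1.66 TPM with Ad-GFP and at 0.85, 1.26, 1.30 and 1.60 TPM with Ad-ATP12A, below control in all 8 libraries. Its differences were −0.49 (limma adjusted p = 0.0358) and −0.60 (adjusted p = 0.00939). The Ad-GFP call for Bnc1 was lost, at adjusted p-values from 0.0537 to 0.126, without any one of control b1r1, b1r2 or b2r2 or Ad-GFP b1r2, b2r1 or b2r2. Wt1 was at 2.49, 2.04, 2.12 and 2.31 TPM with Ad-GFP and at 2.38, 1.30, 1.5 and 2.74 TPM with Ad-ATP12A. Both Wt1 sets overlapped control, at −0.23 (limma adjusted p = 0.419) and −0.37 (adjusted p = 0.144).

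Msln was at 92.3, 118.8, 61.8 and 210.7 TPM with Ad-GFP and at 153.7, 115.8, 188.3 and 142.4 TPM with Ad-ATP12A, above the highest control of 59.9 TPM in all 8 libraries. The means were 246% and 306% of control. The difference with Ad-GFP was 1.16 (95% interval 0.32 to 2.00, limma adjusted p = 0.0637), with 1.09 and 1.24 in the batches. It passed with a term for Xist (adjusted p = 0.0232) and without bleomycin b2r1 (0.0338) or Ad-GFP b2r1 (1.41, adjusted p = 0.0306). The difference with Ad-ATP12A was 1.59 (95% interval 0.75 to 2.43, limma adjusted p = 0.012), with 1.43 and 1.75 in the batches. The coefficient of variation of Msln was 53.0% in the bleomycin group, 53.1% with Ad-GFP and 20.0% both in control and with Ad-ATP12A.

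By non-overlap with control, Ad-GFP had 4 members lower (Gpm6a, Lrrn4, Upk1b and Bnc1) and 1 higher (Msln), where 4.49% and 10.8% of all genes were so placed. Ad-ATP12A had 5 lower and 1 higher, where 10.8% and 14% of all genes were. Over all 12 bleomycin-treated libraries, Gpm6a, Lrrn4, Upk1b and Bnc1 lay below every control in 12, Upk3b in 11 (all but Ad-GFP b1r1) and Wt1 in 4.

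**Figure D3:**
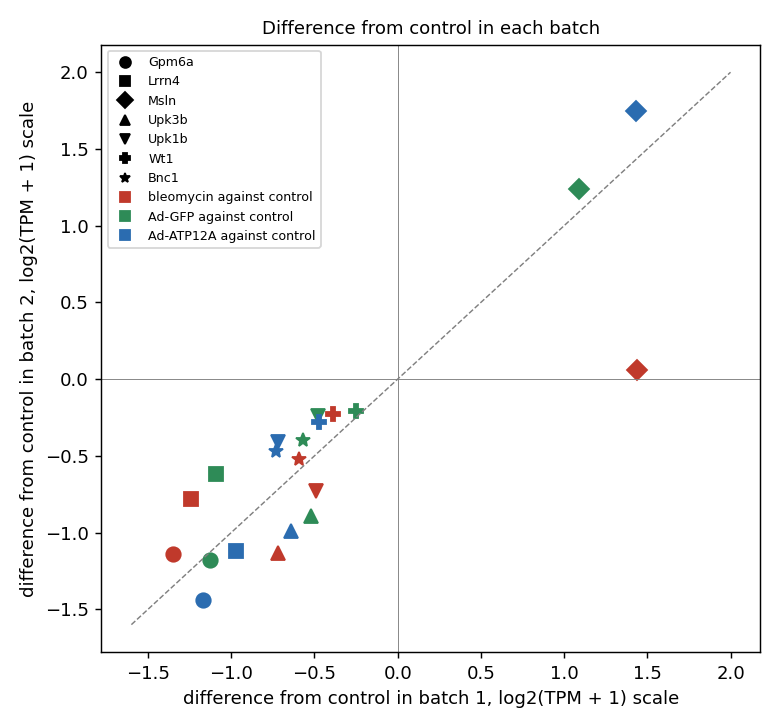
Difference from control within batch 1 (horizontal axis) and within batch 2 (vertical axis), both on the log2(TPM + 1) scale over 2 libraries per group and batch; shapes are genes, colours are the 3 comparisons, and the dashed line marks equal values. The 6 genes other than Msln are below 0 in both batches in every comparison, and the Msln point for bleomycin sits at 1.44 and 0.06.

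Among the bleomycin-treated groups no member passed the test. Ad-GFP against bleomycin alone had 0 of 7 members called, where 0.0118% of all genes were called in either direction, and Ad-ATP12A against Ad-GFP had 0 of 7, where 0.00588% were. At an unadjusted p under 0.05 there were also 0 members in both, out of 287 and 413 genes. All 7 values for Ad-GFP against bleomycin were above 0, from 0.07 for Bnc1 to 0.41 for Msln, and the 95% interval ran from −0.28 to 0.46 for Gpm6a, from −0.03 to 0.52 for Upk1b and from −0.43 to 1.25 for Msln. For Ad-ATP12A against Ad-GFP 6 values were below 0, with −0.15 (−0.52 to 0.22) for Gpm6a, and Msln was at 0.43 (−0.41 to 1.27). For Msln the widths leave differences of more than 1 log2 unit possible in either of these comparisons.

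The ratio of Msln to Gpm6a, chosen after the values were seen, set the direction of Msln beside that of Gpm6a within each library. It ran from 0.61 to 0.841 in control, from 1.17 to 5.87 after bleomycin, from 1.69 to 8.0 with Ad-GFP and from 3.34 to 8.84 with Ad-ATP12A. No bleomycin-treated library came down to the control range, including bleomycin b2r1, whose Msln was below control but whose Gpm6a was lower still. The mean log2 ratio was higher than control by 2.04, 2.36 and 2.95. No test is given, since the pair was picked for its opposite directions.

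**Figure D4:**
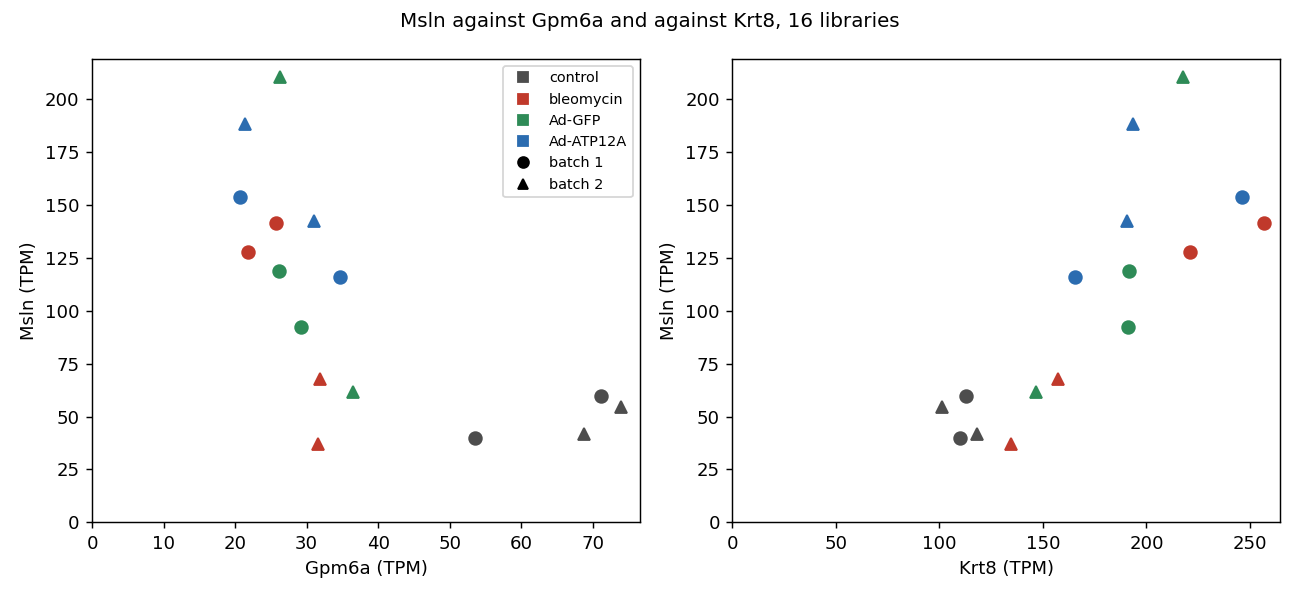
Msln (vertical axis, TPM) against Gpm6a (left) and against Krt8 (right) in the 16 libraries, coloured by group and shaped by batch. On the left the controls stand apart at high Gpm6a and low Msln, and on the right the libraries with more Krt8 mostly hold more Msln.

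Msln was compared library by library with 14 chosen genes, and it varied with 3 of the 4 keratins among them. No share over all genes was computed for these relations. Krt8, a keratin made by mesothelium and by lung epithelium alike, was at 110.0, 113.0, 118.3 and 101.1 TPM in control. It was at 221.1, 257.0, 134.8 and 157.4 TPM after bleomycin, with b2r1 the lowest of the 4, as for Msln. With group and batch means removed, Msln correlated with Krt8 over 16 libraries at r = 0.83 and rho = 0.80 (permutation p = 0.00012 and 0.00041, and 0.00084 and 0.0028 adjusted over 14 genes). It correlated with Krt18, the partner of Krt8, at r = 0.84 and rho = 0.78 (permutation p = 7e-05 and 0.0006, adjusted 0.00084 and 0.0028), and with Krt19 at r = 0.79 and rho = 0.80 (permutation p = 0.00026 and 0.00035, adjusted 0.0012 and 0.0028). Within batches 1 and 2 the values of r were 0.78 and 0.88 for Krt8, 0.73 and 0.94 for Krt18, and 0.84 and 0.80 for Krt19. Leaving out Ad-GFP b2r2 and bleomycin b2r1, the libraries farthest from the median of Msln, r was 0.72, 0.74 and 0.70.

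Aldh1a1, an aldehyde dehydrogenase of airway and mesothelial cells, ran against Msln at r = −0.72 and rho = −0.66 (permutation p = 0.0014 and 0.0067, adjusted 0.0049 and 0.024), with −0.55 and −0.83 in the batches and −0.57 without the same 2 libraries. The fourth keratin, Krt7, stood at r = 0.56 and rho = 0.60 (permutation p = 0.025 and 0.016, adjusted 0.07 and 0.045), with 0.85 and 0.40 in the batches. The other surface proteins compared gave r = −0.41 for Cdh1, the epithelial cadherin, 0.15 for Pdpn, podoplanin, and −0.02 for Ezr, ezrin of the microvilli, with permutation p-values of 0.11, 0.59 and 0.93. Of the other members, Gpm6a was closest to a relation, at r = −0.52 and rho = −0.52 (permutation p = 0.039 and 0.04, adjusted 0.09 and 0.094). Residuals of a fit are not fully independent, so these permutation p-values are approximate. Group and batch were removed as separate terms, so differences between batches within a group stay in r, also within a batch. The collagen gene Col1a1 was lowest in the same library as Msln after bleomycin (b2r1, 242.9 TPM) and with Ad-ATP12A (b1r2, 180.7 TPM). With Ad-GFP its lowest library was b1r1, and that of Msln b2r1. Whether the relation is particular to keratins was not tested.

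The same residuals describe how the members varied among themselves. Each was compared with the mean of the other 6 over the 16 libraries: r was 0.66 for Bnc1, 0.58 for Upk3b, 0.43 for Gpm6a, 0.42 for Lrrn4, 0.33 for Upk1b, 0.30 for Wt1 and −0.16 for Msln. Among the 15 pairs without Msln, 13 were above 0, from −0.15 to 0.75 with a median of 0.33. The closest pairs were Gpm6a with Lrrn4 at 0.75 and Gpm6a with Upk3b at 0.70. These values are descriptions over libraries that share batches and any difference in the pleura sampled.

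By the largest r with the mean of the members' residuals, the 10 genes most like them were Aldh1a2, Foxo6, Fut7, Slc27a3, Fbxo46, Slurp1, Crem, Vipr1, Akr1e1 and Abhd14a, with r from 0.66 to 0.76 over 16 libraries. Aldh1a2, the retinoic acid synthesising enzyme of embryonic and adult mesothelium, came first at r = 0.76 and rho = 0.69, and 0.67 without control b2r1 and Ad-ATP12A b2r1. It averaged 24.8 TPM in control and 16.2 TPM after bleomycin, at −0.59 with a limma adjusted p of 0.0836, and passed without bleomycin b2r2 (0.0454) or without the 3 libraries low in Scgb1a1 (0.044). With all libraries none of the 10 passed the test in bleomycin against control. These r values are the highest of a search through up to 17003 genes over 16 libraries. A search of that size can give such values for unrelated genes, and no background was computed. Foxo6 and Fut7 were also low, at 0.98 and 0.94 TPM on average in control.

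A second list of 12 mesothelial markers was counted apart from the members. Calb2 and Crb2 were too low to be tested, and Calb2, which encodes calretinin, was under 0.5 TPM in every library. Of the 10 tested, 4 were lower and 0 higher in each comparison with control: Nkain4, Rspo1, Cldn15 and Igfbp6. Of all genes tested 5.61%, 4.52% and 9.49% were lower in these comparisons. The list's median was −0.61 after bleomycin, −0.49 with Ad-GFP and −0.65 with Ad-ATP12A, against 0.05, 0.03 and 0 over all genes.

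Igfbp6, a secreted binder of insulin-like growth factors that fibroblasts make as well, was at 170.0, 207.3, 261.1 and 181.9 TPM in control and at 53.5, 64.4, 83.1 and 50.9 TPM after bleomycin. Its groups did not overlap, and the difference was −1.69 (limma adjusted p = 0.00243). Cldn15, a pore-forming claudin of tight junctions, was at 9.51, 9.73, 9.19 and 11.3 TPM in control and at 5.55, 5.14, 4.54 and 4.64 TPM after bleomycin. That difference was −0.87 (limma adjusted p = 0.00221).

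Rspo1, a secreted enhancer of Wnt signalling, averaged 20.2 ± 2.93 TPM (SD, n = 4) in control and 9.20 ± 1.66 after bleomycin, at −1.06 (limma adjusted p = 0.0189). The Rspo1 call was lost without bleomycin b1r1 (adjusted p = 0.0542), b1r2 (0.0632) or b2r2 (0.0524), or without the 3 libraries low in Scgb1a1 (0.0781). Nkain4, which encodes a small membrane protein that interacts with the sodium pump, averaged 43.0 ± 4.29 TPM in control and 27.5 ± 2.82 after bleomycin, at −0.63 (limma adjusted p = 0.0122, and 0.0518 without bleomycin b1r1, 0.0563 without the libraries low in Scgb1a1). Muc16, the large mucin that binds mesothelin, was at 6.05, 7.24, 5.41 and 15.05 TPM in control and at 3.98, 6.84, 2.55 and 5.04 TPM after bleomycin. Its difference of −0.71 did not pass (limma adjusted p = 0.0877) and pointed the opposite way from that of Msln.

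**Figure D5:**
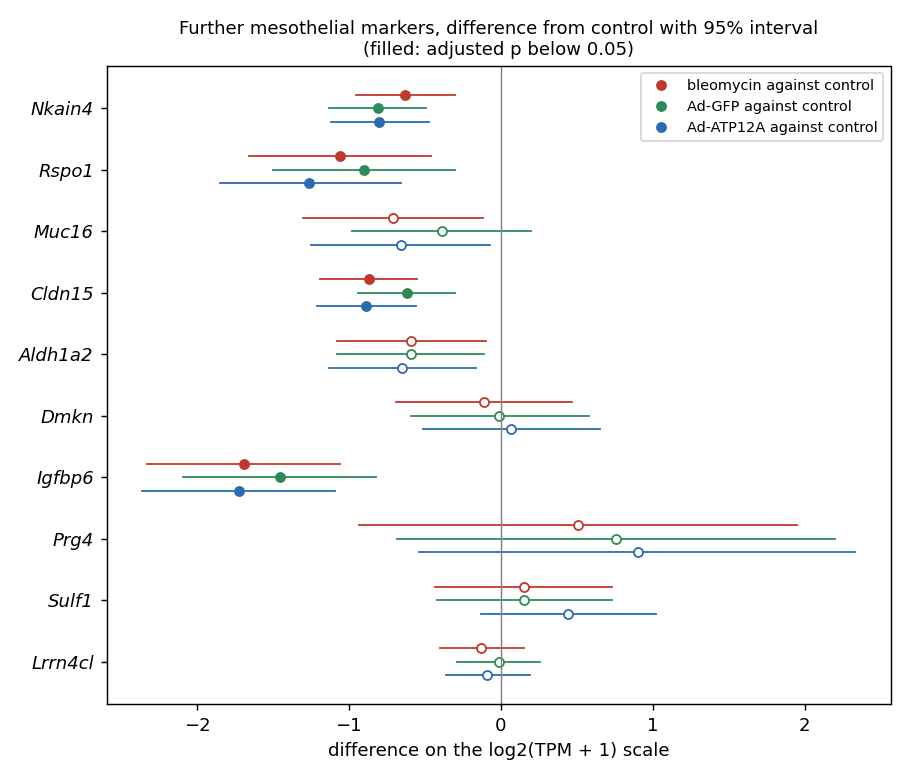
Difference from control of the 10 further mesothelial markers that could be tested, on the log2(TPM + 1) scale with 95% intervals, in 3 comparisons that share the control libraries; filled points passed an adjusted p of 0.05. Nkain4, Rspo1, Cldn15 and Igfbp6 are filled and below 0 in each comparison, while the intervals of Dmkn, Sulf1, Prg4 and Lrrn4cl span 0 in each, with Prg4 at 0.51 to 0.90.

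Among 8 keratins and surface proteins that mesothelium shares with epithelium, 3 were higher and 1 lower after bleomycin. With Ad-GFP the counts were 3 and 1, and with Ad-ATP12A 2 and 1. Over all genes tested 13.2%, 9.16% and 13.3% were higher and 5.61%, 4.52% and 9.49% lower in these comparisons. After bleomycin Krt8 was higher by 0.75 (limma adjusted p = 0.00893), Krt18 by 0.81 (adjusted p = 0.0149) and Krt7 by 0.59 (adjusted p = 0.021), and Aldh1a1 was at −1.01 (adjusted p = 0.0183). Leaving out bleomycin b1r1 or b1r2 ended the calls of Krt18 (adjusted p = 0.0549 and 0.0562), Krt7 (0.0719 and 0.0761) and Aldh1a1 (0.0586 and 0.0571). Krt7 also needed control b1r1 (0.067 without it), and Aldh1a1 also bleomycin b2r2 (0.0632 without it) and the 3 libraries low in Scgb1a1 (0.0896 without them).

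Genes linked to a mesothelial to mesenchymal transition, which many other lung cells express, were called in both directions: of 12 tested, 3 were higher and 1 lower after bleomycin, 3 and 1 with Ad-GFP, and 5 and 2 with Ad-ATP12A. Over all genes tested 13.2%, 9.16% and 13.3% were higher and 5.61%, 4.52% and 9.49% lower. Col1a1, a chain of type I collagen, was higher by 3.48 (limma adjusted p = 0.00217) and Fn1, fibronectin, by 2.90 (adjusted p = 0.00368). Zeb1, a transcription factor that represses epithelial genes, was lower, at −0.99 (adjusted p = 0.00898, and 0.0635 with no batch term). Which cells carried these changes cannot be read from bulk lung tissue.

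Of the coelomic transcription factors that accompany Wt1 in development, 7 of 10 were tested, and 1 was higher and 0 lower after bleomycin, 0 either way with Ad-GFP, and 1 higher with Ad-ATP12A. That is near the 13.2% and 13.3% of all genes called higher after bleomycin and with Ad-ATP12A. The one after bleomycin was Sox9, at 0.82 (limma adjusted p = 0.0433; 1.84 with a pseudocount of 0.1), a call lost without any single one of the 8 libraries compared other than bleomycin b2r1 (adjusted p from 0.0557 to 0.14), and without Ad-ATP12A b2r1 (0.0529) or b2r2 (0.0531) or the 3 libraries low in Scgb1a1 (0.115). Sox9 was at 0.22, 0.26, 0.41 and 0.19 TPM in control, so it entered the test only through bleomycin-treated libraries. The size of its difference rests on those low values. The list's median pointed down, at −0.26, −0.20 and −0.34 in the 3 comparisons, against 0.05, 0.03 and 0 over all genes. Next by p after bleomycin were Tcf21 at −1.12, Gata5 at −0.40 and Gata6 at −0.26 (limma adjusted p = 0.0881, 0.19 and 0.203). Tcf21 ran from 92.9 to 163.6 TPM in control and from 46.5 to 79.8 after bleomycin, and passed on the 8 libraries compared (0.0037). In the retinoic acid list, 8 of 11 genes were tested, with 0 called after bleomycin or Ad-GFP and 1 lower with Ad-ATP12A. That is near the 9.49% of all genes called lower with Ad-ATP12A.

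Markers of other tissue that a piece of lung can carry were read in the same libraries. Of all genes tested, 5.61%, 4.52% and 9.49% were called lower in the 3 comparisons with control. Summed TPM of 7 heart muscle genes ran from 357 to 711 in control, 97.8 to 453 after bleomycin, 94.0 to 685 with Ad-GFP and 77.6 to 275 with Ad-ATP12A, with 1, 0 and 5 of the 7 called lower. Summed TPM of 6 adipocyte genes ran from 38.1 to 147, 16.2 to 96.6, 26.1 to 55.7 and 18.5 to 75.8, with 1 of 5 tested called lower each time. Summed TPM of 5 skeletal muscle genes ran from 12.1 to 22.5, 2.39 to 9.75, 4.43 to 13.8 and 3.04 to 8.96, with 1, 0 and 1 of 3 tested called lower, each time Ckm, a creatine kinase that heart muscle also makes. The part of these tissues in the fall of the mesothelial genes was not tested. Of the liver list 4 of 5 genes were under 0.5 TPM in every library, as were Ptcra and Rag1 of the 5 thymus genes and the myosins Myh4 and Myh1 of the skeletal muscle list.

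Markers of other lung cells differed in how many were called, where 5.61%, 4.52% and 9.49% of all genes were lower in the 3 comparisons. Summed TPM of 6 alveolar fibroblast genes lay below the control range of 2070 to 4090 in every bleomycin-treated library, with 564 to 1320 after bleomycin, 459 to 1590 with Ad-GFP and 389 to 1020 with Ad-ATP12A, and 4, 5 and 5 of the 6 were called lower. Of 6 general capillary genes 3, 2 and 3 were lower, and of 6 alveolar type 1 genes 1, 1 and 4. Of 6 alveolar type 2 genes 0 were called in any comparison, of 3 club cell genes 0, 0 and 1 were lower, and of 5 ciliated cell genes 1, 0 and 1. Of 7 adventitial and subpleural fibroblast genes 0 were lower in any of the 3 comparisons, and 1, 0 and 2 were higher. The shares of all genes called higher were 13.2%, 9.16% and 13.3%. Summed TPM of 4 macrophage genes ran from 106 to 191 in control, 256 to 501 after bleomycin, 161 to 589 with Ad-GFP and 207 to 628 with Ad-ATP12A. Since TPM is a share of each library, these gains and losses and the mesothelial ones bear on each other, and their part in the result was not tested.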

How the data were processed

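RNA-seq of 16 mouse lung libraries was read from 1 table of log2 values that the authors deposited, one column per library. Turned back from log2(TPM + 1), columns summed to 999999.12 to 1000000.82 TPM. Per the submitters' processing notes, STAR and RSEM were used with GRCm39 (mm39); versions, annotation and strand setting are not given in the sources used here. Symbols came from GENCODE M21 on the earlier build GRCm38 and matched 52093 identifiers, leaving 1554 without one. Groups, batches and replicate numbers came from sample titles.

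A gene entered when 4 or more libraries held it at 1 TPM or above, which left 17003. On log2(TPM + 1), limma with a trended prior was fitted with batch and 4 group means over all 16 libraries, two-sided, Benjamini-Hochberg adjusted, threshold 0.05. Batch differences used 8 group-by-batch means. No count model was fitted, because the table holds no counts. The script was tested on simulated data. R 4.3.3, limma 3.58.1, Python 3.11.15, pandas 2.3.3 and matplotlib 3.10.9 were used.

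The members and gene lists were chosen with earlier results of these data known. Named genes were the 7 members, up to 4 per further list by smallest p in bleomycin against control, Muc16, the 10 genes most like the members, and markers needed for checks of other cells; members of a list named beyond this were chosen after their values were seen. The values of 1 gene that a list counts are not reported here.

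The fits were repeated with each library left out in turn, within each batch alone, on the 8 libraries compared, with a replicate block, with no batch term, with a term for Xist, with 0.1 as the pseudocount, after median-ratio scaling or quantile normalization, with no filter or with one on a mean of 5 TPM, and leaving out the 3 libraries low in Scgb1a1.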

Additional observations from a re-analysis of the deposited data

How the results depend on the processing

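The counts of members called held within 1.5 times under every alternative not named here. In bleomycin against control, batch 1 alone, with 2 libraries per group, gave 2 lower and 1 higher, and batch 2 alone gave 0 lower. In Ad-GFP against control, batch 1 alone and the term for Xist each gave 1 higher (Msln), and batch 2 alone gave 0 lower. In Ad-ATP12A against control, batch 1 alone gave 3 lower, and batch 2 alone gave 2 lower and 0 higher. Fewer libraries enter those fits of a single batch. Leaving out 1 library at a time gave 4 to 5 lower and 0 to 1 higher after bleomycin, 2 to 4 lower and 0 to 1 higher with Ad-GFP, and 4 to 5 lower and 1 higher with Ad-ATP12A. No called value changed sign. In Ad-GFP against control Bnc1 did not pass without the filter (adjusted p = 0.0756) or on the 8 libraries compared (0.122), and Upk3b passed with the filter of a mean of 5 TPM (0.0475) and with median-ratio scaling (0.0496). Wt1 and Bnc1 left the tested genes under the filter of a mean of 5 TPM. The replicate block gave 5, 3 and 5 lower and 0, 0 and 1 higher, changed no member's call, and called 783 lower and 1853 higher of all genes after bleomycin. Same-numbered libraries deviated together, with all 4 pairs at r above 0.1, in 0 of the comparisons (r from −0.43 to 0.30). This check cannot exclude a pairing, because the residuals of the few libraries in a group depend on each other. Depth is unknown, so the counting error behind low values cannot be given.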

Other observations

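Relatives of the members were counted as well. Of all genes tested, 5.61%, 4.52% and 9.49% were lower in the 3 comparisons with control, and 13.2%, 9.16% and 13.3% higher. Of 10 genes from the same protein families, 8 were tested, and 2 were lower after bleomycin, 0 with Ad-GFP and 3 with Ad-ATP12A, with 0 higher in any of the 3. Of the 2 after bleomycin, 1 was Upk2, and the call of the other held in only 12 of 27 alternative fits. After bleomycin Upk2, a further uroplakin, was at −0.77, or −1.55 with a pseudocount of 0.1 (limma adjusted p = 0.0165, and 0.0545 without bleomycin b2r2). Its TPM was low throughout, at 1.38, 0.93, 2.01 and 1.72 in control and 0.59, 0.45, 0.58 and 0.21 after bleomycin. Outside control, Upk2 reached 1 TPM only in Ad-GFP b1r1 (1.19). It thus met the filter with the fewest libraries allowed, mainly through the group where it was high. The filter kept it in 19 of the alternative fits of this comparison, against 28 for Gpm6b. Upk1a, the tetraspanin next of kin to Upk1b, was at −0.63, or −0.95 with that pseudocount, and did not pass (adjusted p = 0.103, but 0.0341 without control b1r2 and 0.0463 without Ad-GFP b1r1), nor did Gpm6b, the relative of Gpm6a, at −0.38 (adjusted p = 0.138).

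For the 2 lists that follow, the shares of all genes tested were 13.2%, 9.16% and 13.3% higher and 5.61%, 4.52% and 9.49% lower. Among 8 genes of hyaluronan synthesis, breakdown and binding, 2 were higher after bleomycin, 1 with Ad-GFP and 2 with Ad-ATP12A. With Ad-ATP12A 1 was also lower. The counts of 1 are near the shares of all genes. Hmmr, a hyaluronan-binding protein that is also a mitotic spindle gene, was higher after bleomycin by 1.73 (limma adjusted p = 0.000234), and Has2, a hyaluronan synthase, by 2.33, or 4.23 with a pseudocount of 0.1 (adjusted p = 0.013, and 0.0569 without the 3 libraries low in Scgb1a1). Hmmr was at 1.01, 1.12, 0.91 and 0.76 TPM in control, so it met the filter only with bleomycin-treated libraries, where it was high. Has2 was at 0.23, 0.24, 0.12 and 0.09 TPM in control, so it entered the test only through bleomycin-treated libraries. The size of its difference rests on those low values. Cd44, the main hyaluronan receptor, was at 0.67 (limma adjusted p = 0.058). It passed without control b1r1 (0.0264) or Ad-GFP b2r2 (0.0496) and on the 8 libraries compared (0.0464). Hyal1, a hyaluronidase, was at −0.63 (limma adjusted p = 0.069). It passed without Ad-GFP b2r1 (0.0297) or b2r2 (0.043) and on the 8 libraries compared (0.00929). After quantile normalization (0.0445) or median-ratio scaling (0.0436) Hyal1 passed as well. Of 8 Hippo pathway genes, which TEAD factors bind or belong to, 2 were lower and 1 higher after bleomycin, 2 and 0 with Ad-GFP, and 2 and 1 with Ad-ATP12A. After bleomycin Ccn2, a secreted matrix-associated protein, was higher by 1.39 (adjusted p = 0.0264), while Lats2, a kinase of the pathway, was at −0.67 (0.0318) and Amotl2, an adaptor that binds its effectors, at −0.50 (0.0351). Each of these 3 calls was lost without control b1r1, control b1r2, bleomycin b1r1 or bleomycin b1r2 (adjusted p from 0.054 to 0.103), that of Ccn2 also without control b2r2, and those of Lats2 and Amotl2 also without control b2r1 or bleomycin b2r2. Without the 3 libraries low in Scgb1a1 the adjusted p was 0.0587 for Ccn2, 0.0965 for Lats2 and 0.144 for Amotl2.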
